A study of Mus musculus with 18 samples.

Results

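Interferon-induced genes are the genes that cells switch on when interferons or foreign nucleic acid are sensed. A list of 40 such mouse genes was followed across 18 Affymetrix 3' expression arrays. Each gene was represented by the probe set that names it alone and has the highest mean over the 18 arrays. By this rule 38 of the 40 genes had a value, out of 18193 genes in all: Isg15, the ubiquitin-like modifier, lies only on a probe set shared with another symbol, and Ifi44 matched none. Of the 38, 21 lay above a filter that removed the 40% of genes with the lowest mean level, and 10916 genes passed that filter and were tested. Dhx58 at a mean of 6.58 and Oasl1 at 6.60 lay just inside the filter level of 6.54, and Mx2 at 6.48 and Zbp1 at 6.40 just outside it. All levels are quantile-normalized log2 values of one probe set, so they compare arrays for one gene and not one gene with another.

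The arrays hold RNA of 3 mouse lung carcinoma lines, named A2C12, betaD5 and cRAF_cMYC, which were derived from lung tumours of double transgenic mice carrying c-myc and c-raf, 8 months of age, and were grown in DMEM with serum. From each line the side population (SP) and the remaining cells (nonSP) were profiled in 3 replicates, which gives 6 groups of 3 arrays. SP cells are those that expel a DNA-binding dye and so appear as a dim fraction in flow cytometry. No interferon or other stimulus is named in the labels, and every group shares the 2 transgenes and the culture conditions. The design asks how SP cells differ from nonSP cells in each line. Whether the replicates came from separate cultures is not stated, so p-values measure only the spread between these samples, which may be technical.

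Type I interferons bind the receptor made of Ifnar1 and Ifnar2, and interferon gamma binds Ifngr1 and Ifngr2. Both receptors act through JAK kinases and STAT transcription factors. The type I signal forms a complex containing Stat2 and Irf9 that binds the interferon-stimulated response element, whereas interferon gamma acts mainly through a palindromic element called GAS. The induced genes include sensors of foreign RNA, enzymes and binding proteins that block viral replication, GTPases directed against intracellular pathogens, and the machinery that supplies peptides to MHC class I.

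Promoter stretches are given for 6 members that carry the element letters: Gbp2, Gbp3, Igtp and Ifit1 each spanned over 2 log2 units across the arrays, whereas Irgm1 and Oas1a did not. They were taken from the RefSeq mouse annotation (GRCm38.p6), read 5′ to 3′ on the gene's strand, and end at or before the base preceding the annotated start of transcription. Capitals mark the letters GAAANNGAAA on either strand, with overlapping matches run together. The stretches are chr3:142620574-142620643 (plus strand) for Gbp2, chr3:142559969-142560043 (plus) for Gbp3, chr11:58199492-58199555 (plus) for Igtp, chr19:34640755-34640843 (plus) for Ifit1, chr11:48871421-48871480 (minus) for Irgm1 and chr5:120907526-120907575 (minus) for Oas1a.
Gbp2: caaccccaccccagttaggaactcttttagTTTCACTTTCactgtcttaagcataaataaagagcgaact
Gbp3: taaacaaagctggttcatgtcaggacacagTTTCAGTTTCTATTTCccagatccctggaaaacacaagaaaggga
Igtp: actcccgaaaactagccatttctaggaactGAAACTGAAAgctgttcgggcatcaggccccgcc
Ifit1: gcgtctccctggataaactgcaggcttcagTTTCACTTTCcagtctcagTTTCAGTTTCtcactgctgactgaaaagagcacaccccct
Irgm1: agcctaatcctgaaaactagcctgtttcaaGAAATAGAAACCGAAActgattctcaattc
Oas1a: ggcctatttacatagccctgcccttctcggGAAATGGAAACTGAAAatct

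A promoter window of 300 bases, 250 before and 50 after the start, was found for 31 of the 40 members. GAAANNGAAA was searched on both strands and lay in the windows of 16 of the 31 members (51.6%), against 3.99% of all 27025 genes with a window. The palindromic letters TTCNNNGAA, as in GAS, lay in the windows of 10 of the 31 (32.3%), against 9.55% of all genes with a window. Both patterns are thus more frequent among the members than over the genome's promoters, which describes the list and not these arrays. Oasl1, Oasl2 and Ifit2, whose levels are described below, had no GAAANNGAAA in their windows and are not shown.

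Before the results, 2 of the 9 pairs of same-numbered SP and nonSP arrays need mention, because over all genes outside the list they went against their labels. The nonSP array labelled betaD5 1 had its best correlation with a cRAF_cMYC array (r = 0.982) and reached 0.926 with betaD5 arrays. The nonSP array labelled cRAF_cMYC 3 had its best correlation with a betaD5 array (0.988) and reached 0.93 with cRAF_cMYC arrays. Arrays of betaD5 2 and 3 and of cRAF_cMYC 1 and 2 also reached correlations of 0.98 to 0.988 with the other line, but only through these pairs. With the 2 pairs set aside as partners, betaD5 2 and 3 reached 0.983 to 0.987 within betaD5 and 0.927 to 0.931 with cRAF_cMYC, and cRAF_cMYC 1 and 2 reached 0.967 to 0.974 within cRAF_cMYC and 0.892 to 0.931 with betaD5. These are correlations across genes, which are not independent replicates, and the arrays keep their labels throughout. Every line comparison is given with the 9 pairs as labelled and again without the 2 pairs, and the second form is conditional on a choice that narrows the spread within lines. The list behaved here like the rest of the array. Among the 38 members, 21 (55.3%) had betaD5 1 nearer to cRAF_cMYC 1 and 2 and cRAF_cMYC 3 nearer to betaD5 2 and 3, against 52% of all genes tested.

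Markers of other cells were read beside the list. Of 13 leukocyte markers on the array, 7 lay above the filter, namely Laptm5, Fcer1g, Lyz2, Cd68, Csf1r, Cd3e and Siglech. The mean level of all 13 was 6.04 to 6.47 over the 18 arrays. Ptprc, the pan-leukocyte phosphatase, lay below the filter at 3.61 to 4.30. As labelled, Csf1r was higher in A2C12 than in cRAF_cMYC by 1.97 on nonSP and 2.3 on SP arrays. None of the 7 passed in that comparison, and 1 on nonSP and 2 on SP arrays lay below 0. Of 10 lung and general epithelial markers, 4 lay above the filter, namely Epcam, Krt8, Krt18 and Sftpb. The mean over all 10 was 6.11 to 6.97 over the 18 arrays. The epithelial adhesion gene Epcam stood at 8.37 to 9.64. The lung epithelial factor Nkx2-1 stood at 5.87 to 6.68, around the filter level, and its mean, like those of Sftpc and Cdh1, lay below the filter. Of 10 fibroblast and mesothelial markers, 9 lay above the filter, with a mean over all 10 of 8.94 to 9.28 in A2C12, 10.65 to 11.75 in betaD5 and 11.17 to 12 in cRAF_cMYC. Of those 9, 6 were lower in A2C12 than in each of the other lines as labelled and none was higher. The shares of all genes called in the same comparisons are given below, beside the member counts. Upk3b (-7.76 against betaD5), Wt1 (-4.22), Dcn (-2.82) and Msln (-2.77) were among the 6, while Col1a1 (-0.10), Col3a1 (-0.21) and Pdgfra (0.37) did not pass. The part of these markers in the line differences below was not tested.

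Interferon-induced genes spread widely over these arrays, although no group was labelled as stimulated. Of the 38 members, 11 (28.9%) spanned more than 2 log2 units between the lowest and the highest array, and so did 7 of the 21 tested (33.3%), against 13.1% of all genes tested. The median span was 1.38 over the 21 tested members and 1.10 over all genes tested. Over all 38 members, which include those under the filter, it was 1.32. Of the 7, Gbp2, Oasl1 and Ifih1 passed the filter on their mean only through the pairs where they were high. In pair means, Oasl1 stood at 7.82 to 8.05 in betaD5 1 and cRAF_cMYC 1 and 2 and at 5.36 to 6.48 elsewhere. Gbp2 stood at 8.40 to 8.98 in these pairs and at 4.80 to 6.85 elsewhere. Ifih1 stood at 6.71 to 7.37 in betaD5 and cRAF_cMYC and at 5.31 to 6.29 in A2C12, under the filter level of 6.54. Their span and their place among the tested members are thus not separate observations. Gbp2 had the widest span at 4.83, followed by Gbp3 at 3.75, Oasl1 at 2.88, Psmb8 at 2.80 and Oasl2 at 2.70. Ifit3 at 0.66, Oas2 at 0.73 and Oas1a at 0.74 had the narrowest.

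**Figure D1:**
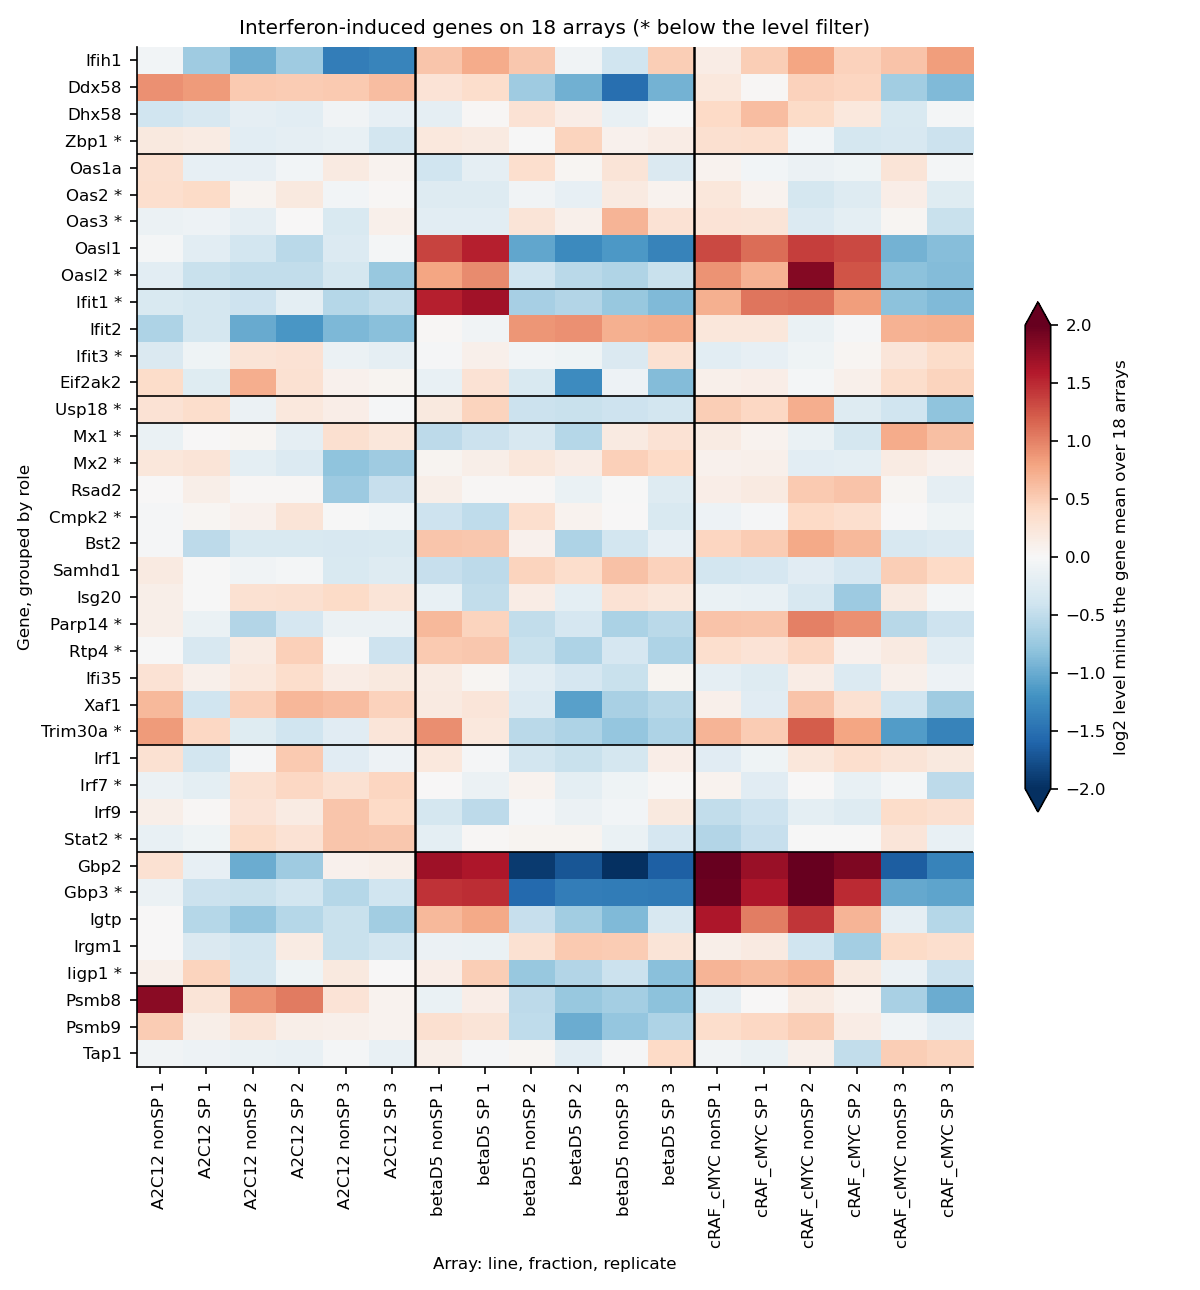
Level of each of the 38 members in each of the 18 arrays, shown as log2 difference from that gene's mean, with colours capped at 2 units either way, arrays ordered by line, replicate and fraction, genes by role, and a star for members below the filter. Gbp2, Gbp3, Oasl1, Oasl2 and Ifit1 are high in betaD5 1 and cRAF_cMYC 1 and 2 and low in betaD5 2 and 3 and cRAF_cMYC 3, while Ifit2 and Samhd1 run the other way.

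With the 9 pairs as labelled, few members separated the lines. In A2C12 minus betaD5, 3 of the 21 tested members passed the test (limma on the 9 pair means, Benjamini-Hochberg adjusted p under 0.05), 1 higher and 2 lower in A2C12, against 28.2% of all genes. In A2C12 minus cRAF_cMYC, 2 of 21 passed, both lower in A2C12, against 22.9% of all genes. In betaD5 minus cRAF_cMYC, limma called 0 of 21 members and 0% of all genes, with 1 member and 110 genes at an unadjusted p under 0.05. In the last comparison 17 of the 21 members lay below 0, with a median of -0.24 against 0.02 over all genes. In the comparisons with A2C12 the members' medians were 0.08 and -0.10, against -0.03 and -0.02 over all genes. The 3 comparisons share lines and are not independent of one another.

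The 3 members that passed were a sensor, a translation blocker and a proteasome subunit. Ifih1, which encodes the double-stranded RNA sensor MDA5, had pair means of 6.29, 5.83 and 5.31 in A2C12, 7.31, 6.90 and 6.71 in betaD5 and 6.99, 7.28 and 7.37 in cRAF_cMYC. All A2C12 pair means lay below all others, but single arrays overlapped, with 6.61 in A2C12 nonSP 1 and 6.26 in betaD5 nonSP 3. The A2C12 pair means also lay under the filter level of 6.54, so Ifih1 passed the filter only through the other lines. Its difference was -1.16 (SE 0.27, adjusted p = 0.0113) against betaD5 and -1.41 (SE 0.27, adjusted p = 0.00576) against cRAF_cMYC.

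Ifit2, an RNA-binding protein that blocks translation, had pair means of 8.67, 8.07 and 8.30 in A2C12, 9.13, 10.06 and 9.89 in betaD5 and 9.38, 9.08 and 9.87 in cRAF_cMYC. A2C12 was again below all other pairs. The difference was -1.34 against betaD5 (SE 0.29, 95% interval -1.99 to -0.70, adjusted p = 0.00861) and -1.10 against cRAF_cMYC (adjusted p = 0.0243). The second call was lost without A2C12 2 (-0.96, adjusted p = 0.093), A2C12 3 (-1.07, 0.0791), cRAF_cMYC 1 (-1.13, 0.0608) or cRAF_cMYC 3 (-0.89, 0.058).

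Psmb8, a catalytic subunit of the immunoproteasome, which cuts proteins into peptides for MHC class I, ran the other way. Its pair means were 7.95, 7.88 and 7.09 in A2C12, 6.92, 6.28 and 6.17 in betaD5 and 6.83, 7.03 and 6.09 in cRAF_cMYC. The lowest A2C12 pair mean lay close to the highest of the other lines, without overlap. Single arrays did overlap, with 6.98 in A2C12 SP 3 and 7.08 in cRAF_cMYC nonSP 2. The difference was 1.19 against betaD5 (SE 0.33, adjusted p = 0.0259) and 0.99 against cRAF_cMYC (adjusted p = 0.0575). The first call was lost without A2C12 1 (1.03, adjusted p = 0.0908), A2C12 2 (1.06, 0.0904), betaD5 2 (1.10, 0.0834) or betaD5 3 (1.04, 0.0933), on the SP arrays alone (0.93, 0.108) and on the deposited values (0.48, 0.251). Ddx58, the RNA sensor RIG-I, narrowly missed the threshold at 1.24 in A2C12 minus betaD5 (adjusted p = 0.0501).

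Leaving out both arrays of betaD5 1 and cRAF_cMYC 3 raised the counts for members and for all genes alike. In A2C12 minus betaD5, 12 of 21 members passed (8 higher, 4 lower) against 45% of genes. In A2C12 minus cRAF_cMYC, 10 passed (3 higher, 7 lower) against 36.1%. In betaD5 minus cRAF_cMYC, 10 passed (2 higher, 8 lower in betaD5) against 22.2% of genes, of which 9.55% were higher and 12.6% lower, and the median was -0.33 for members and 0.05 for all genes. The 3 and the 2 members called with all 9 pairs were all among those called here.

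Because 17 of the 38 members lay under the filter, the same fit was also run with no filter. In betaD5 minus cRAF_cMYC without the 2 pairs it called 16 of 38 members, 2 higher and 14 lower, against 14.3% of all genes (5.45% higher, 8.82% lower). In A2C12 minus betaD5 it called 14 (10 higher, 4 lower) against 29.6%, and in A2C12 minus cRAF_cMYC 13 (2 higher, 11 lower) against 24.7%.

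**Figure D2:**
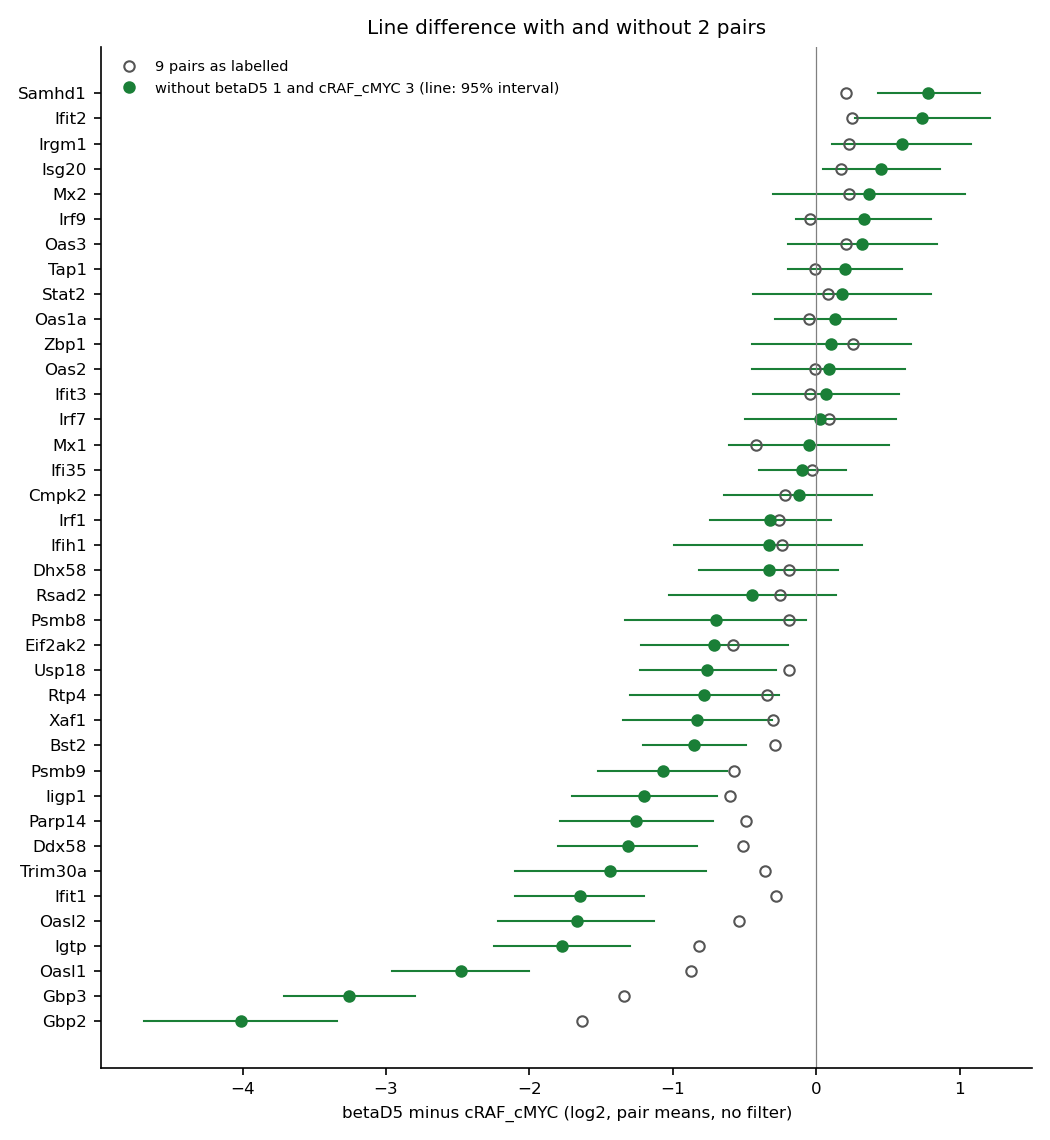
Difference of betaD5 minus cRAF_cMYC in log2 units for the 38 members with no filter, as open points for the 9 pairs as labelled and as green points with 95% intervals without betaD5 1 and cRAF_cMYC 3. Gbp2, Gbp3 and Oasl1 lie farthest below 0 and Samhd1 and Ifit2 farthest above it, and the open points lie closer to 0 for nearly all of the genes that moved.

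The interferon-inducible GTPases, which attack the membranes of intracellular pathogens, held the widest differences. Gbp2, a guanylate-binding protein, stood in the nonSP arrays at 7.05, 5.76 and 6.83 in A2C12 replicates 1 to 3, at 8.45, 4.83 and 4.50 in betaD5 and at 9.11, 9.33 and 5.10 in cRAF_cMYC. In the SP arrays it stood at 6.59, 6.04 and 6.86, at 8.36, 5.04 and 5.11, and at 8.47, 8.62 and 5.41. Within betaD5 and within cRAF_cMYC the arrays thus fell into a high and a low set with no value between 5.41 and 8.36, and A2C12 lay in that gap. As labelled, betaD5 (6.05 ± 2.04, SD of pair means, n = 3) and cRAF_cMYC (7.68 ± 2.10, n = 3) overlapped, with a difference of -1.63 (SE 1.13) that did not pass. It was -4.01 without the 2 pairs (SE 0.30, 95% interval -4.68 to -3.35, limma adjusted p = 6.73e-06), and A2C12 stood 2.36 below cRAF_cMYC (a difference of -2.36, adjusted p = 0.000107) and above betaD5 by 1.65 (adjusted p = 0.000719).

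Gbp3, of the same family, lies under the filter and had pair means of 5.43, 5.29 and 5.22 in A2C12, 7.16, 4.23 and 4.29 in betaD5 and 7.49, 7.54 and 4.65 in cRAF_cMYC. The same 3 pairs were high as for Gbp2. Without the 2 pairs and with no filter, betaD5 minus cRAF_cMYC was -3.26 (SE 0.21, adjusted p = 1.61e-06). Gbp2 and Gbp3 both lie on chromosome 3, and probe sets of such related genes can cross-hybridize, which was not tested.

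Igtp, an immunity-related GTPase also called Irgm3, had pair means of 7.14, 6.74 and 6.84 in A2C12, 8.12, 6.84 and 6.82 in betaD5 and 8.73, 8.47 and 7.04 in cRAF_cMYC. Again betaD5 1 and cRAF_cMYC 1 and 2 were highest and the other 6 pairs lay within 6.74 to 7.14. The difference between betaD5 and cRAF_cMYC was -0.82 (SE 0.47) as labelled and -1.77 (SE 0.20, adjusted p = 0.000146) without the 2 pairs. Iigp1, a related effector GTPase under the filter, differed by -1.20 in the fit with no filter (adjusted p = 0.00534).

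Irgm1, a regulatory GTPase of the same family whose promoter holds overlapping element letters, did not follow them. Its pair means were 9.14, 9.18 and 8.87 in A2C12, 9.16, 9.70 and 9.66 in betaD5 and 9.43, 8.74 and 9.64 in cRAF_cMYC. Its difference between betaD5 and cRAF_cMYC was 0.60 without the 2 pairs (adjusted p = 0.0807), and it was lower in A2C12 than in betaD5 by -0.62 (adjusted p = 0.0304).

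**Figure D3:**
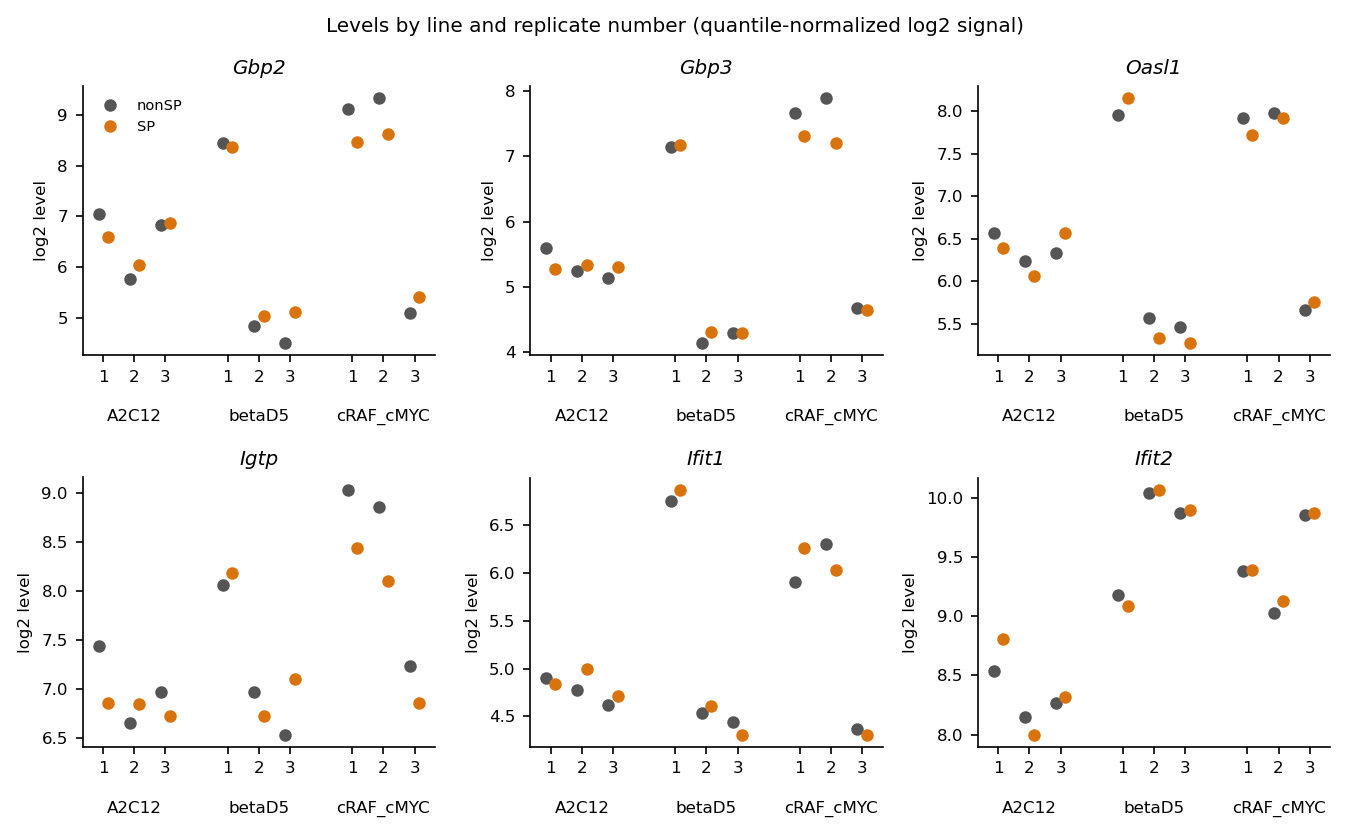
Levels in log2 units of Gbp2, Gbp3, Oasl1, Igtp, Ifit1 and Ifit2 in every array, by line, with SP and nonSP marked and the same-numbered arrays side by side. In the first 5 genes betaD5 1 sits with cRAF_cMYC 1 and 2 and cRAF_cMYC 3 sits with betaD5 2 and 3, and in Ifit2 the order of these sets is turned.

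The OAS family comprises enzymes that make 2-5A, the activator of RNase L, and related OAS-like proteins. Oasl1 had pair means of 6.48, 6.15 and 6.45 in A2C12, 8.05, 5.44 and 5.36 in betaD5 and 7.82, 7.95 and 5.71 in cRAF_cMYC. It showed the same high and low sets as Gbp2. The difference between betaD5 and cRAF_cMYC without the 2 pairs was -2.48 (SE 0.21, adjusted p = 1.46e-05), and Oasl1 was 0.96 higher in A2C12 than in betaD5 and lower than in cRAF_cMYC by -1.52, both past the threshold.

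Oasl2, a second OAS-like gene under the filter, stood at 5.34 in betaD5 1 and 5.26 and 6.01 in cRAF_cMYC 1 and 2, and at 3.63 to 4.14 in the other 6 pairs. With no filter and without the 2 pairs, its difference was -1.67 (adjusted p = 0.00102). Oas1a, a 2-5A synthetase, was flat by comparison. Its pair means were 7.91, 7.71 and 7.95 in A2C12, 7.54, 8.01 and 7.82 in betaD5 and 7.83, 7.73 and 7.94 in cRAF_cMYC. All 3 lines overlapped for Oas1a, and it passed in no line comparison, although its promoter carries overlapping element letters. Oas2 and Oas3 lay under the filter at means of 6.25 and 5.63 and passed in none of the 3 line comparisons with no filter.

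Among the IFIT proteins, which bind viral RNA, 2 members moved in opposite directions. Ifit1 had pair means of 4.87, 4.89 and 4.66 in A2C12, 6.81, 4.57 and 4.38 in betaD5 and 6.08, 6.17 and 4.34 in cRAF_cMYC. The 3 high pairs stood clear of the other 6, and the difference between betaD5 and cRAF_cMYC was -1.65 without the 2 pairs and with no filter (SE 0.21, adjusted p = 0.000309). Ifit2 was instead higher in betaD5 by 0.74 without the 2 pairs (SE 0.21, adjusted p = 0.032), with betaD5 2 and 3 and cRAF_cMYC 3 at 9.87 to 10.06 and the other pairs below. Ifit3 stayed between 6.0 and 6.66 on all 18 arrays. Eif2ak2, the kinase PKR that halts translation on double-stranded RNA, was the member with the smallest p between betaD5 and cRAF_cMYC as labelled, at -0.58 (SE 0.24, adjusted p = 0.961). It was -0.71 without the 2 pairs (adjusted p = 0.0396, or 0.0658 with no filter).

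Of the sensors, Ddx58 was high in all A2C12 pairs (9.18, 8.81 and 8.87), in betaD5 1 (8.61) and in cRAF_cMYC 1 and 2 (8.41 and 8.74). It was low in betaD5 2 and 3 (7.46 and 7.06) and cRAF_cMYC 3 (7.50). A2C12 stood above betaD5 by 1.69 without the 2 pairs (SE 0.19, adjusted p = 6.08e-05), and betaD5 minus cRAF_cMYC was -1.31 (adjusted p = 0.00156). Ifih1, by contrast, did not separate betaD5 from cRAF_cMYC in either form. Dhx58, the RIG-I-like helicase LGP2, was lower in A2C12 than in cRAF_cMYC by -0.63 without the 2 pairs. Zbp1, a sensor of Z-form nucleic acid, stayed within 5.96 to 6.84 on its represented probe set.

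The antiviral effectors were mixed. Bst2, or tetherin, which holds budding virions at the cell surface, had pair means of 8.79, 8.76 and 8.74 in A2C12, 9.61, 8.80 and 8.79 in betaD5 and 9.53, 9.77 and 8.77 in cRAF_cMYC, so that 3 pairs were high and 6 nearly equal. The difference of betaD5 minus cRAF_cMYC was -0.85 without the 2 pairs (SE 0.16, adjusted p = 0.00402). Samhd1, which depletes the nucleotides that viruses need, ran the other way at 0.78 (SE 0.17, adjusted p = 0.00871), with 10.54, 10.67 and 10.59 in betaD5 2 and 3 and cRAF_cMYC 3 and 9.65 to 10.23 elsewhere.

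Xaf1, a pro-apoptotic partner of XIAP, had pair means of 7.76, 8.21 and 8.17 in A2C12, 7.85, 6.95 and 7.04 in betaD5 and 7.58, 8.07 and 7.08 in cRAF_cMYC. As labelled, A2C12 and betaD5 overlapped and differed by 0.77 (SE 0.30, adjusted p = 0.0887). Without the 2 pairs the difference was 1.05 (SE 0.20, adjusted p = 0.00186), and betaD5 minus cRAF_cMYC was -0.83 (adjusted p = 0.0239). Isg20, an RNA exonuclease, was higher in A2C12 than in cRAF_cMYC by 0.57 (adjusted p = 0.0273). Ifi35 was high on all arrays, at 10.25 to 11.04, and A2C12 stood 0.45 above betaD5 (adjusted p = 0.0189), a difference that turned to -0.29 on the deposited values.

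Under the filter, Trim30a, a regulator of inflammatory signalling, and Parp14, an ADP-ribosyltransferase, differed between betaD5 and cRAF_cMYC by -1.44 (adjusted p = 0.00893) and -1.26 (adjusted p = 0.00562) without the 2 pairs. Usp18, the protease that removes ISG15 from its targets and restrains the type I receptor, differed by -0.76 (adjusted p = 0.0379). Rtp4 missed the threshold at -0.78 (adjusted p = 0.0506). Mx1 (3.67 to 4.99), Mx2 (5.67 to 6.96) and Cmpk2 (4.81 to 5.72), under the filter, and Rsad2 or viperin (6.08 to 7.38), above it, passed in none of the line comparisons in either form on these probe sets.

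Of the 4 transcription factors, 1 passed on its representative probe set, without the 2 pairs, and Stat2 passed on another. Irf1, a gene that responds directly to interferon gamma, stood at 10.89 to 11.87 over the 18 arrays. Irf9, the DNA-binding subunit of the type I complex, was 7.65, 7.80 and 8.06 in A2C12, 7.14, 7.51 and 7.64 in betaD5 and 7.13, 7.36 and 7.92 in cRAF_cMYC, and was higher in A2C12 than in cRAF_cMYC by 0.59 without the 2 pairs (adjusted p = 0.0246). Irf7, the factor that amplifies type I interferon, ranged from 5.41 to 6.37, and Stat2 from 5.72 to 6.87. Both lay under the filter, and these probe sets passed in no line comparison with no filter. The other Stat2 probe set, at 5.54 to 5.91 in A2C12 and 4.36 to 5.12 elsewhere, did not overlap between A2C12 and the other lines. When every probe set was tested, A2C12 was higher on it by 0.92 against betaD5 (SE 0.17, adjusted p = 0.0065) and by 0.83 against cRAF_cMYC (adjusted p = 0.0127) as labelled, and by 0.81 in both comparisons without the 2 pairs.

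In antigen processing, Psmb9, the second inducible proteasome subunit on the list, had pair means of 7.29, 7.17 and 7.06 in A2C12, 7.26, 6.23 and 6.29 in betaD5 and 7.36, 7.29 and 6.84 in cRAF_cMYC. It was low in betaD5 2 and 3 and intermediate in cRAF_cMYC 3. In betaD5 minus cRAF_cMYC the difference was -1.07 without the 2 pairs (SE 0.18, adjusted p = 0.00249) and in A2C12 minus betaD5 0.91, also past the threshold. Psmb8 was then higher in A2C12 than in betaD5 by 1.42 and than in cRAF_cMYC by 0.71 (adjusted p = 0.0479, or 0.0707 with no filter). Tap1, a subunit of the peptide transporter, overlapped between all lines at 8.08 to 8.75.

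The direction of the betaD5 minus cRAF_cMYC differences was checked on the deposited values without quantile normalization, where the median of all genes shifted by 0.42 and the 2 pairs were left out. No member called after quantile normalization changed sign. Gbp2 (-3.57), Gbp3 (-2.82), Oasl1 (-2.06), Igtp (-1.43), Oasl2 (-1.26), Ifit1 (-1.20), Ifit2 (1.06) and Samhd1 (1.09) passed there too, whereas Ddx58 (-0.99, adjusted p = 0.0602), Bst2 (-0.55), Psmb9 (-0.70), Xaf1 (-0.52) and Eif2ak2 (-0.37) kept their sign but did not pass. In A2C12 minus betaD5, Iigp1 turned from 0.70 to -0.09, besides Ifi35 above. With the 9 pairs as labelled, all 8 members called in this comparison on the deposited values were lower in A2C12. The positive differences given above for it, those of Psmb9, Oasl1 and Xaf1 included, are stated for the quantile-normalized values only.

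Of the 38 members, 21 had 1 probe set and 17 had several. Without the 2 pairs, 6 of those 17 had a probe set of the opposite sign in betaD5 minus cRAF_cMYC. The other Gbp2 probe set gave -3.42 (adjusted p = 5.02e-05), close to the -4.01 of the representative one, whose identifier marks possible cross-hybridization. Zbp1 differed by 0.10 on the representative probe set and by -2.20 on the other (adjusted p = 0.000967), where betaD5 1 nonSP and SP stood at 6.99 and 7.09 and cRAF_cMYC 3 at 5.20 and 5.24. Cmpk2 gave -0.12 and, on a probe set with a mean of 4, under the filter level, -2.06 (adjusted p = 0.0501). That value rests on cRAF_cMYC 2, at 6.72 in nonSP and 6.5 in SP, while cRAF_cMYC 1 stood at 4.12 and 4.1. Ddx58 gave -1.58 on another probe set and 0.00 on the last, and Parp14 -0.04 on its second. The levels of a gene given above hold for its representative probe set unless another is named.

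In the comparisons with A2C12, the 27 other probe sets of members were tested among all 34945. As labelled, 3 were called in A2C12 minus betaD5, against 15.5% of all probe sets, and in none of the 3 was the representative one called: Stat2 (0.92), Samhd1 (-0.82, adjusted p = 0.038) and Dhx58 (-0.82, adjusted p = 0.0386). In A2C12 minus cRAF_cMYC 1 was called, that of Stat2, against 12.3%. Leaving out the 2 pairs gave 8 in A2C12 minus betaD5, against 24.6%, and 7 in A2C12 minus cRAF_cMYC, against 20.3%. Dhx58 was then higher in A2C12 than in betaD5 by 0.60 on one probe set (adjusted p = 0.0164) and lower by -0.91 on another (adjusted p = 0.0238), so its direction is not settled. Cmpk2 was lower in A2C12 than in cRAF_cMYC by -1.81 (adjusted p = 0.0348) and Zbp1 by -1.33 (adjusted p = 0.00632), each on a probe set other than the representative one. The Cmpk2 difference rests on cRAF_cMYC 2 (6.72 and 6.5), since cRAF_cMYC 1 (4.12 and 4.1) lay close to A2C12 (3.18 to 4.03).

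The SP and nonSP arrays did not differ for any member past the threshold. With limma on all 18 arrays, 0 of 21 members and 0% of all genes were called for the mean over the 3 lines and within each line. This fit leaves out the pairing of same-numbered arrays, so spread between replicates of a line enters its standard errors and makes it cautious. Standard errors of SP differences below come from it unless the block is named. At an unadjusted p under 0.05 there were 143 genes for the mean, 9 in A2C12, 116 in betaD5 and 77 in cRAF_cMYC, and 0 members in each. Members lay below 0 more often than above, in 16 of 21 for the mean (median -0.06 against 0.00 over all genes), 16 in A2C12 (median -0.05 against 0.01), 13 in betaD5 (-0.01 against 0.00) and 15 in cRAF_cMYC (-0.08 against -0.01). These 4 contrasts share arrays. By pair, 3, 12 and 11 of the 21 members lay above 0 in A2C12 1 to 3. The numbers were 9, 3 and 13 in betaD5 and 12, 5 and 7 in cRAF_cMYC. Of all genes, 44.7% to 54.3% lay above 0 in a pair, so the members' lean below 0 did not hold in every pair. The SP difference itself was also compared between lines, and 0 members and 0% of genes were called in each of the 3 comparisons.

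With the replicate number as a block, which pairs each SP array with its nonSP partner, limma still called 0 members and 0 genes. At an unadjusted p under 0.05 the block gave 1368 genes and 2 members for the mean, 201 and 0 in A2C12, 1159 and 1 in betaD5, and 862 and 1 in cRAF_cMYC. Without betaD5 1 and cRAF_cMYC 3 the blocked fit called 0.147% of genes in betaD5 and 0 members.

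**Figure D4:**
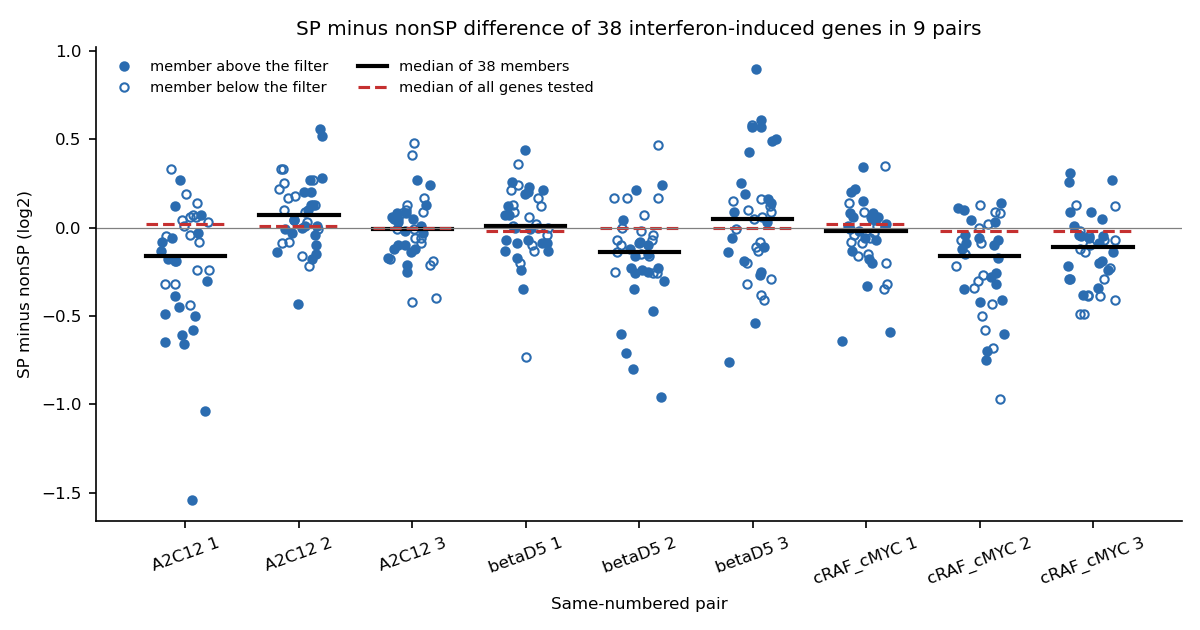
SP minus nonSP difference in log2 units of each member in each of the 9 same-numbered pairs, with filled points for members above the filter, open points for those below it, a black bar for the members' median and a dashed red bar for the median of all genes tested. The members' median runs from -0.16 to 0.07 over the pairs, and single members reach farther, as Psmb8 does at -1.54 in A2C12 1.

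Over the 38 members the number above 0 was 12, 24 and 18 in A2C12 1 to 3, 19, 8 and 21 in betaD5 and 18, 10 and 9 in cRAF_cMYC. The median difference was -0.16, 0.07 and -0.01 in A2C12, 0.01, -0.14 and 0.05 in betaD5 and -0.02, -0.16 and -0.11 in cRAF_cMYC. Pairs of one line thus fell on both sides of 0 in A2C12 and betaD5, and in cRAF_cMYC all 3 medians were below 0. The 3' to 5' ratio of the Gapdh control probe sets, a sign of RNA integrity, differed between SP and nonSP by 0.70 and 1.02 in betaD5 2 and 3 and by -0.59 in cRAF_cMYC 2, against -0.23 to 0.12 in the other pairs, and with this ratio as a covariate in the blocked fit 0 members were called in any SP minus nonSP comparison.

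Isg20 was lower in the SP array of 8 of the 9 pairs. Its differences were -0.13, 0.01 and -0.12 in A2C12, -0.35, -0.35 and -0.06 in betaD5 and -0.02, -0.41 and -0.24 in cRAF_cMYC, on levels of 9.22 to 10.33. The mean was -0.19 (SE 0.12, 95% interval -0.45 to 0.08), and with the block the interval was -0.31 to -0.06 at an unadjusted p of 0.00876 and an adjusted p of 0.281 (limma). Tap1 was also lower in 8 of 9 pairs, with -0.06, -0.60 and -0.05 in cRAF_cMYC and a mean there of -0.24 (SE 0.21). Over the 3 lines its mean was -0.09 on this probe set, and -0.01, 0.03 and 0.12 on its other probe sets.

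Oas1a had the pair differences -0.49, 0.10 and -0.12 in A2C12, 0.23, -0.30 and -0.54 in betaD5 and -0.13, 0.03 and -0.29 in cRAF_cMYC. Both signs occurred in every line, and the mean was -0.17 (SE 0.11, 95% interval -0.40 to 0.07). Xaf1 gave -1.04, 0.20 and -0.14, then 0.07, -0.80 and 0.09, then -0.33, -0.26 and -0.29, with a mean of -0.28 (SE 0.21) and an adjusted p of 0.393 with the block. In Xaf1 the cRAF_cMYC pairs were close to each other while 1 pair in each of the other lines stood far below the rest.

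Eif2ak2 differed by -0.61, -0.43 and -0.03 in A2C12, by 0.44, -0.96 and -0.76 in betaD5 and by 0.02, 0.14 and 0.09 in cRAF_cMYC. In betaD5 the nonSP arrays stood at 7.01, 6.86 and 7.06 and the SP arrays at 7.45, 5.90 and 6.30, so replicate 1 went against the other 2. The betaD5 difference was -0.43 (SE 0.30), and without the 2 pairs and with the block it was -0.86 (adjusted p = 0.0711). The 2 SP arrays low on this probe set are those whose Gapdh 3' to 5' ratio differed most from their nonSP partners. On the other probe sets of Eif2ak2 the betaD5 difference without the 2 pairs was -0.38 (SE 0.45) and -0.33 (SE 0.42). There betaD5 3 was not lower in SP, at 7.22 and 7.3 in nonSP and 7.25 and 7.42 in SP.

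Igtp was lower in the SP array of all 3 cRAF_cMYC pairs. The nonSP levels were 9.03, 8.85 and 7.23 and the SP levels 8.44, 8.10 and 6.85, giving differences of -0.59, -0.75 and -0.38. The groups overlapped, since cRAF_cMYC 3 was low in both fractions, and the difference was -0.57 (SE 0.52), with a block p of 0.0055 before adjustment and 0.482 after it. In A2C12 and betaD5 the Igtp differences had both signs. Gbp2 gave -0.64, -0.70 and 0.31 in cRAF_cMYC, -0.45, 0.28 and 0.03 in A2C12 and -0.09, 0.21 and 0.61 in betaD5.

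Psmb8 in A2C12 rested on a single pair. Its nonSP levels were 8.72, 7.82 and 7.19 and its SP levels 7.18, 7.95 and 6.98, giving differences of -1.54, 0.13 and -0.21 and a mean of -0.54 (SE 0.40). In the comparison of SP differences between lines, the members with the smallest p were Rsad2 for A2C12 minus betaD5 (0.31, SE 0.34), Eif2ak2 for A2C12 minus cRAF_cMYC (-0.44, SE 0.42) and Ifi35 for betaD5 minus cRAF_cMYC (0.32, SE 0.23), all at an adjusted p of 1.

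The rest of the pathway was read from lists of ligands, receptors and signalling genes, upstream sensors and regulators, further interferon-induced genes, and MHC class I genes. None of the 4 interferon ligand genes on the array lay above the filter, and Ifnb1, interferon beta, stood at 4.56 to 5.47. Of 11 receptor and signalling genes tested, 2 were lower in A2C12 than in betaD5 and 2 than in cRAF_cMYC as labelled, below the 28.2% and 22.9% of all genes called in these comparisons. They included Ptpn2, a phosphatase that turns off JAK signalling, at -1.39 (SE 0.12, adjusted p = 0.000114) and -1.30 (adjusted p = 0.000176), and the kinase gene Jak2 at -0.53 and -0.46. The receptor gene Ifnar1 differed by -0.02 and 0.04.

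Of 13 upstream genes, 1 was higher and 4 lower in A2C12 than in betaD5, and 1 higher and 3 lower than in cRAF_cMYC, again beside 28.2% and 22.9% of all genes. Irf2, an antagonist of Irf1, was lower by -1.28 and -0.97, and Tlr3, an endosomal double-stranded RNA receptor, by -0.89 and -0.95. Of 29 further interferon-induced genes, 5 were higher and 6 lower against betaD5, and 4 higher and 5 lower against cRAF_cMYC. These shares lie somewhat above those of all genes, in both directions, and nothing particular to the lists is read from them. Ifitm1, a membrane protein that blocks viral entry, stood at 10.58 to 11.29 in A2C12 and 6.34 to 8.36 elsewhere, a difference of 4.11 (SE 0.26, adjusted p = 2.17e-05) against betaD5 and 3.60 (adjusted p = 4.62e-05) against cRAF_cMYC. Ifi47, another immunity-related GTPase, was instead lower in A2C12 by -1.95 (SE 0.28, adjusted p = 0.00125) and -1.66, and Ifi204, a DNA sensor, by -2.25 and -2.56.

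Of 9 MHC class I genes, 3 were higher in A2C12 than in betaD5, a share near the 28.2% of all genes. H2-K1, a classical class I heavy chain, was higher by 1.29 (SE 0.21, adjusted p = 0.00236) and H2-D1 by 1.21. Against cRAF_cMYC 2 were higher and 1 lower, beside 22.9% of all genes, with H2-K1 at 1.13 and H2-D1 at 1.08. On the deposited values H2-K1 (0.54) and H2-D1 (0.47) did not pass against betaD5.

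Between betaD5 and cRAF_cMYC no gene of these lists was called as labelled. Without the 2 pairs, 0 higher and 1 lower were called among 11 receptor and signalling genes, 0 and 2 among 13 upstream genes, 2 and 5 among 29 further induced genes and 0 and 3 among 9 MHC class I genes, beside 22.2% of all genes. Cgas, the cytosolic DNA sensor, stood in nonSP arrays at 9.52, 6.48 and 6.46 in betaD5 and 9.71, 9.66 and 6.24 in cRAF_cMYC, and at 5.76 to 6.17 in all A2C12 arrays. Its high arrays were the same as those of Gbp2, and its difference was -3.29 (SE 0.19, adjusted p = 9.05e-07).

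The adaptor gene Sting1, which acts below Cgas, differed by -1.29 (SE 0.21, adjusted p = 0.00207). Ccl5, a chemokine, stood in nonSP arrays at 8.86, 5.98 and 5.47 in betaD5 and 8.50, 8.63 and 6.0 in cRAF_cMYC, and differed by -2.95 (SE 0.24, adjusted p = 1.22e-05). Cxcl10, an interferon gamma-induced chemokine, differed by -1.67 (SE 0.25, adjusted p = 0.000979), and the receptor gene Ifngr1 by -0.69 (SE 0.16, adjusted p = 0.0104). Lgals9 at 0.98 and Ifi47 at 0.74 were higher in betaD5. No gene of these lists was called in an SP comparison, with or without the block.

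**Figure D5:**
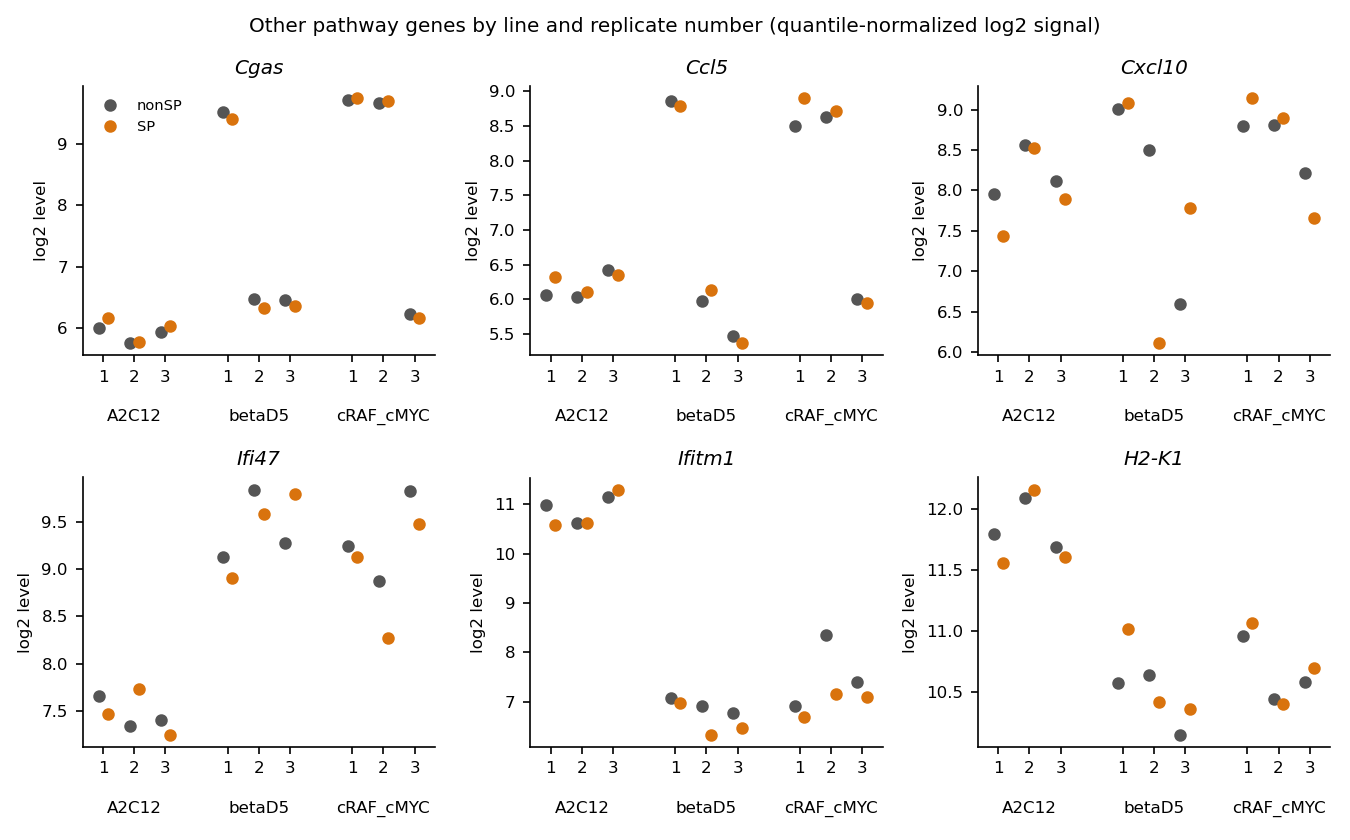
Levels in log2 units of Cgas, Ccl5, Cxcl10, Ifi47, Ifitm1 and H2-K1 in every array, by line and fraction. Cgas and Ccl5 are high in betaD5 1 and cRAF_cMYC 1 and 2 alone, while Ifitm1 is at 10.58 to 11.29 in A2C12 and no higher than 8.36 elsewhere.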

How the data were processed

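The authors measured 200 ng of total RNA from each of 18 samples on Affymetrix 3' arrays and processed them with Affymetrix Expression Console, per the labels' protocols and the submitters' processing notes; version and summary method are not given in the sources used here. The deposited values are on a log2 scale, 2.28 to 15.28. Of 45101 probe sets, 34945 carried 1 gene symbol, 932 several and 9160 none, besides 64 control probe sets. Values were quantile-normalized, 1 probe set was kept per gene, and limma 3.58.1 (R 4.3.3, eBayes with trend) was fitted to 6 groups (12 residual degrees of freedom) or, between lines, to 9 pair means (6, or 4 without 2 pairs), with two-sided tests and Benjamini-Hochberg adjustment over all genes tested. The fit was tested on simulated data. The number of arrays limits the precision. Same-numbered SP and nonSP arrays of a line deviated together in all 9 pairs (r of 0.425 to 0.954), so the numbers pair them by the rule used, r over 0.1 in every pair; in betaD5 2 and 3 an array of another number came close or closer (0.605 against 0.559, and 0.602 against 0.68).

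Members and lists were chosen with earlier results of these data known. Named were all members by range and count, with full values for up to 8 called members per comparison, or the 3 with the smallest p, and always Xaf1, Oas1a, Stat2 and Irf7; up to 3 called genes per pathway list; other members were named after their values were seen. Alternatives are in the closing section.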

Additional observations from a re-analysis of the deposited data

Results flagged for a closer look

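The SP minus nonSP difference of Psmb8 in A2C12 1 was -1.54, with the other 8 pairs between -0.34 and 0.26. Its gap to the nearest pair, relative to the range of all 9 pairs, exceeded Dixon's 95% critical value of 0.493. It was the only value to do so among 13 sets of differences examined, and chance alone marks about 1 in 20 sets. The nonSP array of that pair, at 8.72, was the highest Psmb8 level of the 18.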

How the results depend on the processing

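Members called in A2C12 minus betaD5 (3 as reported) numbered 8 on the deposited values, 1 with 60% of genes left out, 12 without betaD5 1 and cRAF_cMYC 3, and 14 when those pairs and the filter were both dropped. In A2C12 minus cRAF_cMYC (2 as reported) the numbers were 5, 1, 10 and 13. In betaD5 minus cRAF_cMYC (0) they were 10 and 16 without the 2 pairs. Genes called in A2C12 minus betaD5 (3076) numbered 6068 on the deposited values and 4908 without the 2 pairs. The latter gave 3942 in A2C12 minus cRAF_cMYC (2505) and 2419 in betaD5 minus cRAF_cMYC. All 8 and all 5 members called on the deposited values were lower in A2C12, where the median of all genes shifted by -0.72 and -0.46.

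Leaving out 1 replicate gave 2 to 8 members and 1761 to 3594 genes in A2C12 minus betaD5, the 8 without betaD5 1, and 1 to 4 members and 1464 to 2481 genes in A2C12 minus cRAF_cMYC, with 1 without A2C12 2 or cRAF_cMYC 1 and 4 without cRAF_cMYC 3. It gave 0 in betaD5 minus cRAF_cMYC and in every SP comparison. With the replicate block, A2C12 minus betaD5 gave 4 members (adding Ddx58, adjusted p = 0.0254) and A2C12 minus cRAF_cMYC 4 (adding Igtp, 0.0443, and Psmb8, 0.017). Across lines nothing in the labels links these numbers. The block changed no SP call, and with the Gapdh 3' to 5' covariate it called 14 genes in betaD5 and 0 members. On nonSP arrays alone Ifih1 in A2C12 minus betaD5 was -1.03 (adjusted p = 0.0717). The causes were not tested. Alternatives without the 2 pairs that also drop the filter or add the block were chosen after seeing the data, as were probe set fits. The 2 pairs themselves were picked from these same arrays, so every call without them depends on that choice. Low signal leaves 17 members under the filter, and few arrays limit all tests.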
